A study of Mus musculus with 14 samples.

Results

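A group of 36 genes for receptors, signalling proteins and cytoskeletal proteins shared by many kinds of leukocyte was followed in mouse liver. The genes came from a list whose members were picked with the difference between the study's 2 groups already known, so their values for that difference are a description: a member named as called or not called passed or missed the threshold in a fit over all genes, and no such call supports a statement about the members. Each gene's level was the sum of the estimated counts of its transcripts. All 36 were found among the 24970 genes with counts in at least 1 library, and all 36 passed the filter on low counts together with 13127 genes in all.

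The study asked, in its design text, how a graft of brown-fat cells changes metabolism and the liver transcriptome. RNA was sequenced from 14 liver samples of mice on a high-fat diet. For 6 samples (title "iBAT 2x") the recipient had a silk scaffold that carried differentiated pre-adipocytes isolated from the stroma of brown fat, and for the 8 control samples (title "Sham-WT") the scaffold was empty; these groups are called transplant and empty scaffold here. The high-fat diet and the implanted scaffold were common to both groups, and the labels give no strain, sex, age, time after implantation or meaning of "2x" and "WT". Estimated counts summed to 22898793 to 28910968 per transplant library and 19482580 to 28723928 per empty scaffold library.

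Many receptors of blood-derived cells have no enzyme of their own and pass their signal through short tyrosine motifs called ITAMs, which are carried by partner chains such as FCER1G and TYROBP. SRC-family kinases phosphorylate the motifs, SYK docks on them, and adaptors, phospholipase C and the VAV exchange factor carry the signal to calcium release and to RAC GTPases, which drive actin assembly and, in phagocytes, the NADPH oxidase; the phosphatases PTPN6 (SHP-1) and INPP5D (SHIP1) oppose it. In the liver most cells with this machinery are Kupffer cells, the resident macrophages, with smaller numbers of monocytes, neutrophils and lymphocytes.

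The member gene Spi1 encodes PU.1, a transcription factor of myeloid and B cells that binds purine-rich DNA with a GGAA core, so the 150 bases before the start of 6 members are shown with each match to GAGGAA in capitals (TTCCTC where the match lies on the opposite strand). In Vav1, Inpp5d and Syk all 6 transplant libraries lay below every empty scaffold library, and in Laptm5 all but 1 did. Cybb is shown because it was called lower too but held no match, and Ptpn6 because its groups were among the closest. Not every member with such separation is shown. Slc15a3 (all 6 below) had no window. Csf3r and Was (all but 1 below) had windows, of which that of Csf3r held a match and that of Was none. The 6 shown were picked by their values in the contrast that chose the members, so they show the letters and support no link between match and level. The windows were read from RefSeq sequence of build GRCm38.p6, 5′ to 3′ on the strand of the gene. They lie at chr17:57278950-57279099 (plus strand) for Vav1, chr1:87620162-87620311 (plus) for Inpp5d, chr4:130913166-130913315 (plus) for Laptm5, chr13:52596732-52596881 (plus) for the second of 2 starts listed for Syk, chrX:9469325-9469474 (minus) for Cybb, and chr6:124738710-124738859 (minus) for Ptpn6.
Vav1: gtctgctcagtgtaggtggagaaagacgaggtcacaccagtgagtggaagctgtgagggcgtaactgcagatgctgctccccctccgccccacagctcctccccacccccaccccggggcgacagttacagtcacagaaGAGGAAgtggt
Inpp5d: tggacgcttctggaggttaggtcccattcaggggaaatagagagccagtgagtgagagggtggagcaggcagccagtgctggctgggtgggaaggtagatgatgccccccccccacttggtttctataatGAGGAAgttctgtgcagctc
Laptm5: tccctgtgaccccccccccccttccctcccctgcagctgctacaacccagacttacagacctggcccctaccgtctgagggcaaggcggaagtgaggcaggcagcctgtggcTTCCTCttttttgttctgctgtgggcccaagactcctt
Syk: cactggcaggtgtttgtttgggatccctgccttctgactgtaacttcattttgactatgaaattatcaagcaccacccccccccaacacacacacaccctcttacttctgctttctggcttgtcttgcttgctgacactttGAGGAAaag
Cybb: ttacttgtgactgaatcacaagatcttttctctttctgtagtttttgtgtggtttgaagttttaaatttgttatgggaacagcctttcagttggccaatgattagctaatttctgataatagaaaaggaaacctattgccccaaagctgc
Ptpn6: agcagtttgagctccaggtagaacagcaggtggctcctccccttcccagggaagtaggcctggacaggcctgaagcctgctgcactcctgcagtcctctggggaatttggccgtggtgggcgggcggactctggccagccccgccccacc

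The match began 11 bases before the start in Vav1, 20 in Inpp5d, 38 in Laptm5 and 9 in the printed Syk window. The window of the first start listed for Syk held no GAGGAA, nor did the Cybb and Ptpn6 windows. The shorter core GGAA does occur in the printed Cybb and Ptpn6 windows. RefSeq promoters were found for 27 of the 36 members, with 34 windows of 250 bases before a start. GAGGAA, searched on both strands, was in 11 of the 34 windows (32.4%), against 23.3% of the 32851 windows of all genes. By gene, 11 of 27 members (40.7%) had a match, against 25.9% of all 27025 genes, and the 16 members without one included the called genes Cybb, Was and Plcg2. Within the last 50 bases before the start, a window length chosen after the matches had been seen, 8 of 34 member windows (23.5%) and 5.2% of all windows held a match. CCAAT was in 8.8% of member windows and 33.8% of all, TATAAA in 8.8% and 12.4%, and TGNGGT, the core bound by RUNX factors, in 38.2% and 40.1%. A match is a stretch of letters and was not measured as a bound site in these livers.

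**Figure D1:**
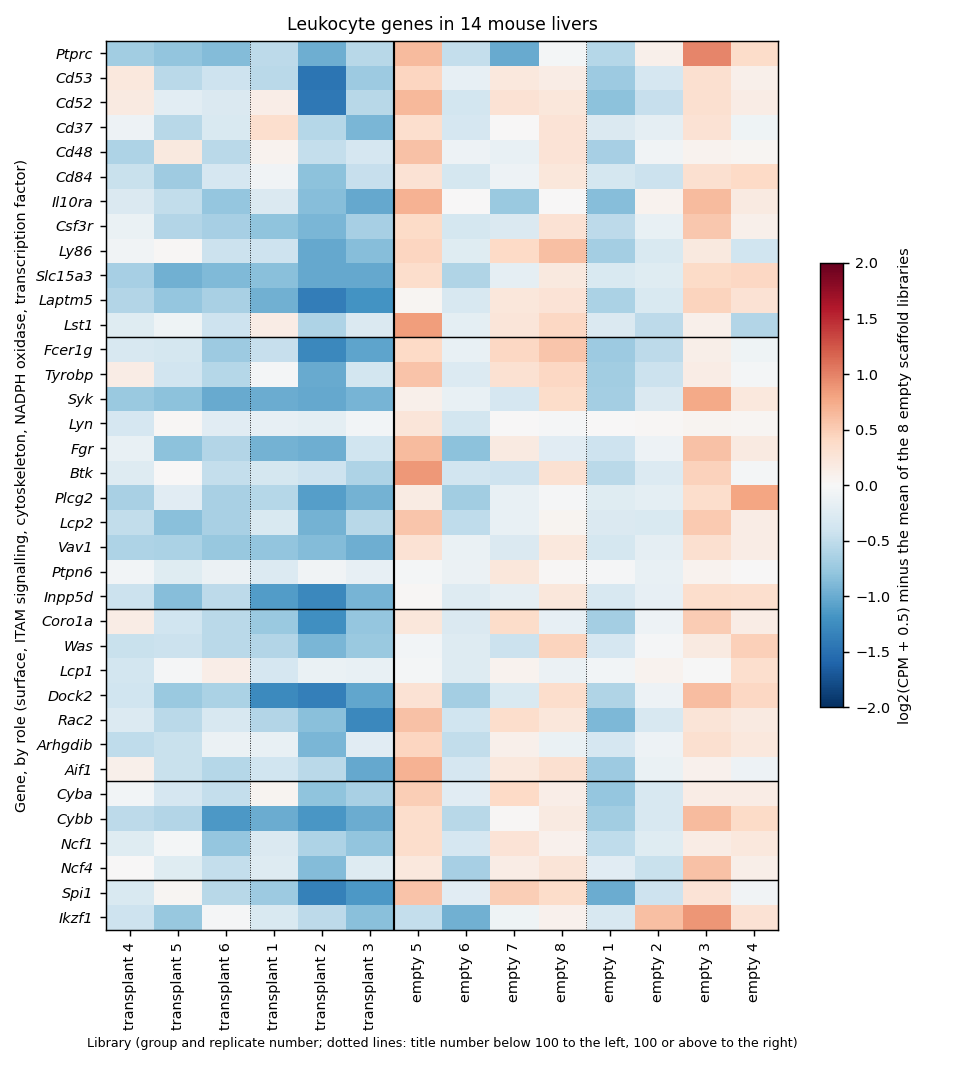
Level of each of the 36 members (rows, grouped by role) in each of the 14 livers (columns), as log2(CPM + 0.5) minus the gene's mean over the 8 empty scaffold livers, in colour from blue (lower) to red (higher). Most cells of the 6 transplant columns are blue, as are many of those of empty scaffold replicates 1 and 6.

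In CPM (a gene's count scaled to the normalized library total), every member had a negative log2 fold change in the transplant group, from -1.24 for Dock2 to -0.14 for Lcp1, with a median of -0.72 beside -0.02 for all genes tested. Of the 36, 13 were called lower at an adjusted p under 0.05 in edgeR's quasi-likelihood test and 0 higher. Over all genes tested 7.54% were called in either direction and 4.23% lower; since the members were listed from the same contrast, nothing is read from that difference. All 6 transplant libraries lay below all 8 empty scaffold libraries for 4 members (Slc15a3, Syk, Vav1 and Inpp5d), and for 0.701% of all genes tested. In 25 members all 6 transplant libraries lay below the empty scaffold median. This was not counted over all genes tested, so nothing is read from it. In whole liver, fewer cells of a type and less RNA per cell cannot be told apart.

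Among the 12 surface receptors and membrane proteins, 4 were called lower and the median log2 fold change was -0.58. Laptm5, a lysosomal membrane protein of blood cells, measured 6.16, 9.04 and 11.0 CPM in the lowest, median and highest transplant library and 10.7, 18.5 and 23.1 CPM with the empty scaffold, a log2 fold change of -0.98 ± 0.18 (SE, n = 6 and 8). In 5 of the 6 transplant livers Laptm5 was under the lowest control liver. Slc15a3, a lysosomal peptide and histidine transporter, measured 2.90, 3.17 and 3.87 CPM against 4.06, 6.53 and 8.80 CPM, with a log2 fold change of -1.04 ± 0.18. Its groups did not overlap, and the transplant libraries lay close together, with a coefficient of variation of 11.3% against 27.4%.

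Ptprc, which encodes CD45, the phosphatase on every nucleated blood cell, measured 2.37, 2.86 and 3.43 CPM with the transplant and 2.31, 5.26 and 10.6 CPM with the empty scaffold (log2 fold change -0.97 ± 0.28). The control livers spread so widely that the lowest lay under all transplant livers. The largest difference in this role belonged to Csf3r, the receptor for the neutrophil growth factor G-CSF, at 0.245, 0.391 and 0.793 CPM against 0.478, 0.898 and 1.56 CPM (-1.19 ± 0.32). Its highest transplant library stood apart from the other 5 and lay inside the control range.

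The tetraspanin Cd53 measured 1.51, 3.32 and 5.95 CPM against 2.87, 5.56 and 7.00 CPM (log2 fold change -0.60 ± 0.24), and Cd52, a short GPI-anchored protein, 1.18, 3.30 and 4.61 CPM against 2.07, 4.66 and 6.61 CPM (-0.39 ± 0.28). Neither was called, and their groups overlapped over most of the range. The other 6 members of the role, Cd84, Ly86 (the partner of the receptor RP105), Cd37, Cd48, Lst1 and Il10ra (a chain of the interleukin-10 receptor), were not called, with log2 fold changes from -0.85 for Il10ra to -0.38 for Cd48.

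**Figure D2:**
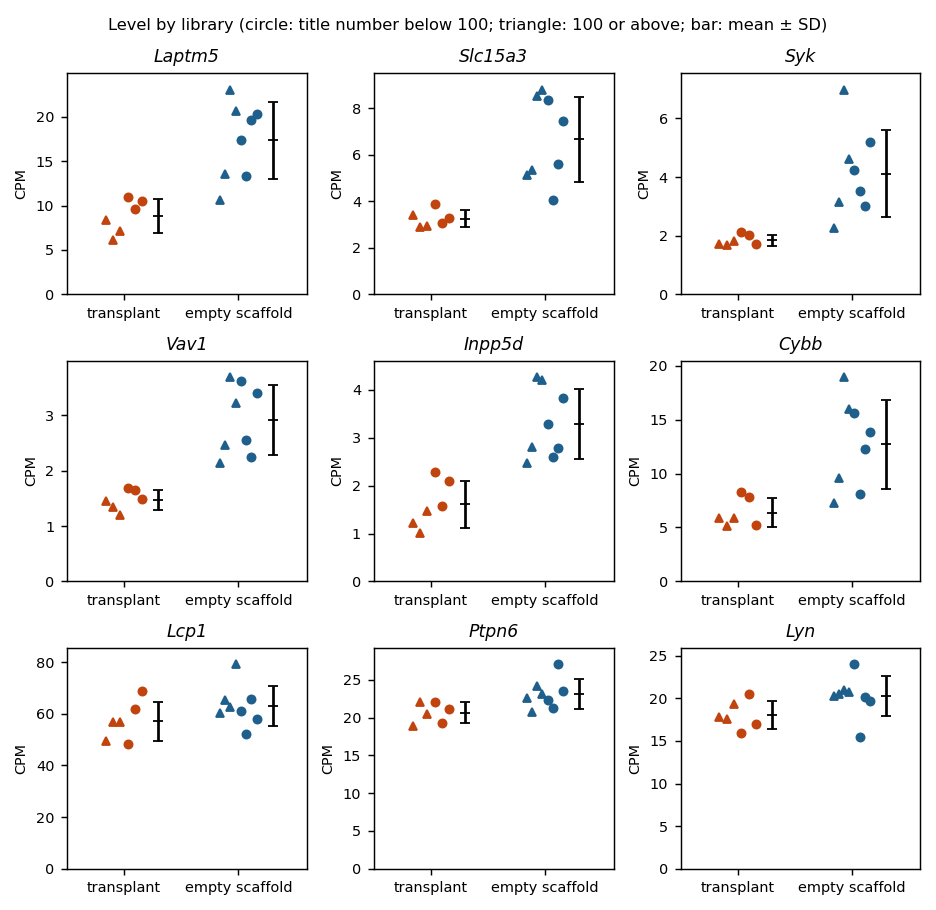
CPM of 9 members in each liver, with the transplant libraries (n = 6) and empty scaffold libraries (n = 8) as points (circles for title numbers below 100, triangles for 100 or above) and mean ± SD as bars; each panel has its own axis from 0. The groups separate for Slc15a3, Syk, Vav1 and Inpp5d and overlap for Laptm5, Cybb, Lcp1, Ptpn6 and Lyn.

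The ITAM signalling role held 11 members, of which 6 were called lower, with a median log2 fold change of -0.79. Both adaptor chains were present: Fcer1g, which carries Fc receptor signals, measured 2.12, 3.76 and 4.66 CPM against 3.38, 5.99 and 8.91 CPM (-0.79 ± 0.23, called), and Tyrobp (DAP12), the chain of TREM2 and related receptors, 3.92, 6.36 and 9.32 CPM against 4.97, 8.77 and 12.7 CPM (-0.40 ± 0.22, not called). Syk, the kinase that docks on the phosphorylated chains, measured 1.67, 1.76 and 2.13 CPM with the transplant and 2.26, 3.87 and 6.98 CPM with the empty scaffold (-1.17 ± 0.22). The 6 transplant livers differed little in Syk while the controls ranged about a median that no transplant liver reached.

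Downstream of SYK, the exchange factor Vav1 measured 1.21, 1.47 and 1.69 CPM against 2.13, 2.89 and 3.70 CPM (log2 fold change -0.99 ± 0.17). The lipid phosphatase Inpp5d, which opposes PI3-kinase, measured 1.02, 1.52 and 2.28 CPM against 2.48, 3.05 and 4.27 CPM (-1.04 ± 0.20). In both genes the highest transplant liver lay below the lowest control. Phospholipase Plcg2 (-1.10 ± 0.30) and the adaptor Lcp2, or SLP-76 (-0.79 ± 0.21), were also called, with overlapping groups, and the kinases Fgr (-0.90 ± 0.28) and Btk (-0.70 ± 0.34) were not.

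A kinase and a phosphatase of the same role stood apart. Lyn, the SRC-family kinase that phosphorylates both ITAMs and inhibitory motifs, measured 15.9, 17.7 and 20.5 CPM against 15.4, 20.4 and 24.0 CPM (log2 fold change -0.17 ± 0.10), and Ptpn6 18.9, 20.9 and 22.1 CPM against 20.8, 22.9 and 27.1 CPM (-0.16 ± 0.08). The control range covered the whole transplant range for Lyn, and the groups of Ptpn6 overlapped. With Lcp1 these had the 3 smallest differences of all members, and their libraries varied least, with coefficients of variation of 11.6% for Lyn, 8.41% for Ptpn6 and 12.4% for Lcp1 in the empty scaffold group against a median of 32.6% over the members.

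Of the 7 genes for actin and RAC proteins, 2 were called lower, Dock2 and Was, and the median log2 fold change was -0.62. Dock2, the exchange factor that activates RAC in migrating leukocytes, measured 0.612, 1.06 and 1.69 CPM against 1.30, 2.60 and 3.90 CPM (-1.24 ± 0.29). Was, the actin nucleation factor missing in Wiskott-Aldrich syndrome, measured 0.327, 0.551 and 0.656 CPM against 0.650, 1.01 and 1.67 CPM (-1.07 ± 0.26). The highest transplant liver for Was lay just above the lowest control.

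Lcp1, or L-plastin, which bundles actin, measured 48.5, 56.9 and 68.9 CPM against 52.2, 61.9 and 79.2 CPM, the smallest difference of all 36 members (log2 fold change -0.14 ± 0.10). Rac2, the blood-cell RAC GTPase, measured 1.72, 3.18 and 4.02 CPM against 2.42, 5.76 and 7.69 CPM (-0.75 ± 0.24). Neither was called, nor were Coro1a, an actin-bound coronin (-0.62 ± 0.22), Aif1, the macrophage protein IBA1 (-0.56 ± 0.23), and Arhgdib (-0.43 ± 0.17).

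The NADPH oxidase makes superoxide with a membrane pair, CYBB (gp91phox) and CYBA (p22phox), and cytosolic subunits that include NCF1 and NCF4. Cybb measured 5.14, 5.87 and 8.28 CPM against 7.26, 13.1 and 19.0 CPM (log2 fold change -0.999 ± 0.21) and was the only called member of the 4. Cyba, its partner, measured 5.51, 7.43 and 10.4 CPM against 5.60, 11.1 and 14.3 CPM (-0.41 ± 0.19). The log2 fold changes of the cytosolic subunits were -0.55 ± 0.20 for Ncf1 and -0.56 ± 0.28 for Ncf4. Neither transcription factor was called: Spi1 measured 2.29, 4.09 and 6.86 CPM against 3.09, 7.23 and 10.1 CPM (-0.73 ± 0.27), and Ikzf1, which encodes IKAROS, 0.431, 0.698 and 1.14 CPM against 0.351, 1.17 and 2.54 CPM (-0.86 ± 0.36).

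**Figure D3:**
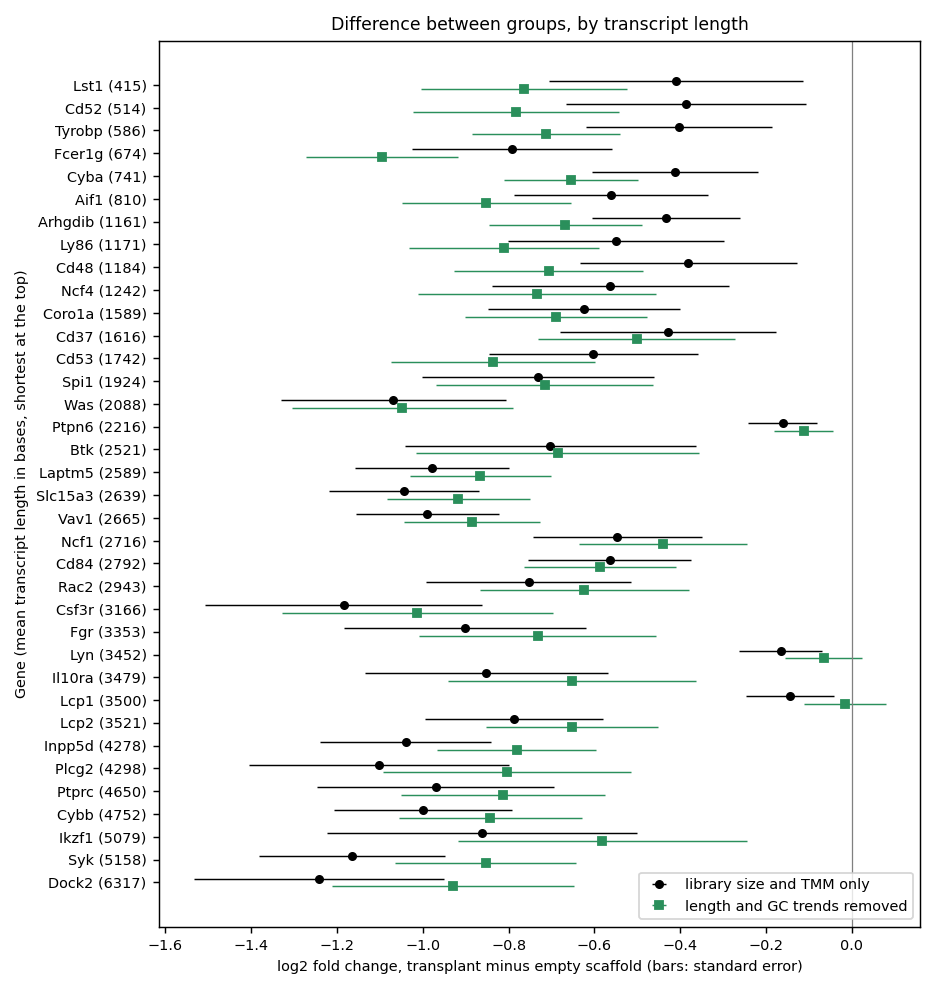
Log2 fold change of each member, transplant against empty scaffold, with its standard error as a bar, for the fit as reported (dots) and after length and GC trends were removed (squares), ordered by transcript length in bases. All reported values lie left of 0, from -1.24 (Dock2) to -0.14 (Lcp1).

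Apart from sums of CPM over genes, levels of different genes were set beside each other only in TPM, which accounts for transcript length. The highest mean TPM over the 14 livers belonged to Lcp1 (22.9), Tyrobp (20.4), Cyba (15.0), Fcer1g (11.8), Ptpn6 (11.0) and Cd52 (10.6). The adaptor chains were thus far above the kinase they feed, since Syk had a mean of 0.664 TPM. TPM is no scale for the groups here: the median log2 ratio of mean TPM, transplant over empty scaffold, was -0.47 for all genes tested and -1.13 for the members.

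The values of single members depended on how libraries were corrected. The length of a gene is the mean over its transcripts, weighted by their counts. In each library, the slope of level on length (log2 level per doubling) ran from 0.176 to 0.223 in the 4 empty scaffold libraries whose title number is 100 or above, from -0.118 to -0.0046 in the 4 numbered below 100, and from -0.242 to 0.0291 over the 6 transplant libraries. With length and GC trends removed together from each library, 13 members were again called lower, 8 of them the same, beside 1.67% of all genes tested. Csf3r, Dock2, Lcp2, Plcg2 and Ptprc were no longer called, and Aif1, Arhgdib, Cyba, Ly86 and Tyrobp became called. The log2 fold change moved from -0.40 to -0.71 for Tyrobp, from -1.17 to -0.85 for Syk and from -0.14 to -0.02 for Lcp1. The 18 shorter members (415 to 2589 bases) went from a median of -0.56 to -0.73 and the 18 longer ones (2639 to 6317 bases) from -0.94 to -0.76. With the authors' effective lengths as an offset instead, 5 members were called (Slc15a3, Laptm5, Syk, Lcp2 and Cybb), beside 1.36% of all genes tested called lower. Dock2 moved from -1.24 to -0.63 and Vav1 from -0.99 to -0.71. Among all genes the set called with both trends removed went from 555 lower and 435 higher to 219 lower and 290 higher.

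The calls also depended on single libraries, here given as a description of the contrast that chose the members. Slc15a3, Laptm5, Syk, Vav1 and Inpp5d were called in all 14 fits that each left out 1 library, Cybb in 13, Dock2 in 9 and Was in 8, and 17 members in none; of these 5, Vav1 and Inpp5d were not called with the effective length offset. The number of members called was 5 without transplant replicate 1, 8 without replicate 2 or 6, and 6 without replicate 3 or 5, and it was 6 without empty scaffold replicate 3 or 4 and 7 without replicate 8. Over all genes tested, the share called lower was 0.657%, 2.74%, 1.74%, 0.912% and 3.31% without transplant replicates 1, 2, 3, 5 and 6. Without empty scaffold replicates 3, 4 and 8 it was 1.22%, 1.13% and 1.34%, beside 4.23% with all 14 libraries. All 36 log2 fold changes of the members were negative in each of the 14 fits.

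The sum of the 36 members ran from 159 to 203 CPM in the transplant libraries (median 192) and from 193 to 304 CPM in the empty scaffold libraries (median 271). Lcp1, Ptpn6 and Lyn, which had the smallest differences, weigh most in this sum, with means of 60.5, 22.1 and 19.3 CPM over all libraries. Empty scaffold replicates 1 (193 CPM) and 6 (199 CPM) lay inside the transplant range, and the other 6 controls lay above every transplant liver. Single libraries were extreme for many members at once: transplant replicate 2 was the lowest of its group for 24 of 36 members and replicate 4 the highest for 19, while empty scaffold replicate 1 was the lowest for 20 and replicate 5 the highest for 17.

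**Figure D4:**
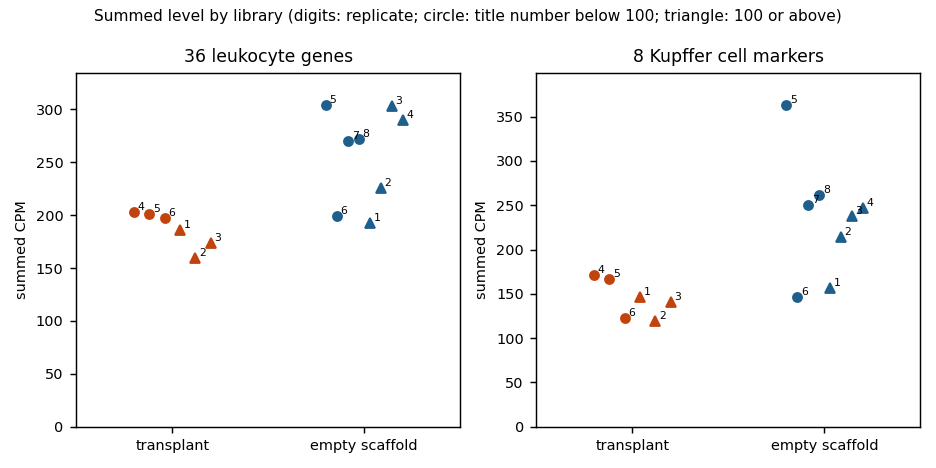
Summed CPM of the 36 members (left) and of 8 Kupffer cell markers (right) in each liver, with transplant (n = 6) and empty scaffold (n = 8) libraries as points labelled by replicate. The members' sum runs from 159 to 203 CPM with the transplant and from 193 to 304 CPM with the empty scaffold.

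Marker genes of liver cell types were read beside the members. The 8 Kupffer cell markers summed to 119 to 171 CPM with the transplant and 146 to 363 CPM with the empty scaffold; all 8 had negative log2 fold changes (median -0.65) and 2 of 8 were called lower, Cd5l (-0.94 ± 0.18) and Csf1r (-1.02 ± 0.19). The 4 stellate cell markers summed to 33.3 to 42.3 CPM against 35.5 to 76.8 CPM with 1 of 4 called lower. Their mean sum was 73.1 CPM in the empty scaffold livers numbered 100 or above and 43.1 CPM in those numbered below 100. Between these control ranges 2 of 4 were called, both higher at 100 or above, beside 23.9% of all genes tested called in either direction. The 4 sinusoidal endothelium markers summed to 54.0 to 77.2 CPM against 71.7 to 99.2 CPM with 1 of 4 called lower. Over all genes tested 4.23% were called lower with the transplant, and nothing is read from the marker calls beside that share. Monocyte markers ran from 4.49 to 10.2 CPM against 5.67 to 14.9 CPM, B cell markers from 1.21 to 2.97 CPM against 1.65 to 4.24 CPM, and NK cell markers from 0.131 to 1.64 CPM against 0.637 to 2.71 CPM. T cell markers (1.10 to 3.09 against 1.62 to 2.96 CPM) and neutrophil markers (0.653 to 2.63 against 0.573 to 2.85 CPM) had wide overlap, as had dendritic cell markers (2.45 to 4.54 against 1.83 to 4.71 CPM), and plasma cell markers ran the other way, from 1.31 to 3.89 CPM with the transplant against 1.15 to 2.01 CPM. Erythroid markers ran from 464 to 2043 CPM against 360 to 1112 CPM, with 0 of 5 log2 fold changes negative and 0 called. The neutrophil genes Ly6g, Retnlg and Mpo, the NK cell genes Ncr1 and Klrb1c and all 3 mast cell markers had under 10 counts in every library. Only 1 of the 4 NK cell markers passed the filter on low counts. Hepatocyte markers, which define the labelled tissue, summed to 78224 to 124831 CPM and 67659 to 124006 CPM. Of their log2 fold changes 0 of 5 were negative (median 0.23), and 0 were called. The part of any cell type in the members' difference was not tested.

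A comparison that had no part in choosing the members was that of the title number ranges. Within the empty scaffold group, 4 livers have numbers from 100 up and 4 have numbers below 100; what the numbers stand for is not given in the labels. This contrast called 23.9% of all genes tested, 12.8% lower in the livers numbered 100 or above, and 3 of the 36 members, all lower there. These were Lst1 (log2 difference -0.93 ± 0.32, adjusted p = 0.0420), Fcer1g (-0.65 ± 0.23, 0.0496) and Ly86 (-0.68 ± 0.24, 0.0499), by edgeR's quasi-likelihood test. Lst1, a small membrane protein of myeloid cells, lay at 0.712 to 1.46 CPM in the livers numbered 100 or above and at 1.10 to 2.76 CPM in the others, so that the ranges overlapped in each of the 3 as well. All 3 stayed called without transplant replicate 1 or 2 or empty scaffold replicate 3 or 6. Only Lst1 was called without transplant replicate 3, 5 or 6. Without empty scaffold replicate 1 or 8 the only member called was Ikzf1, higher in the livers numbered 100 or above. In the other fits that left out 1 library 0 members were called, beside 13.5% to 28.5% of all genes tested.

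Lst1 is 415 bases long, Fcer1g 674 and Ly86 1171. With length and GC trends removed together, 0 of 36 members were called, beside 3.15% of all genes tested; length and GC were not tested apart. The median log2 difference of the members was -0.02, with 13 of the 18 longer members and 3 of the 18 shorter ones above 0. The largest difference upward was that of Ikzf1 (1.02 ± 0.39, adjusted p = 0.0693 by edgeR), which is 5079 bases long. Between the ranges of the transplant group, 3 livers each, 0 of 36 members were called, beside 0.0381% of all genes tested, and 7 (19.4%) had an unadjusted p under 0.05, beside 21.4% of all genes.

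**Figure D5:**
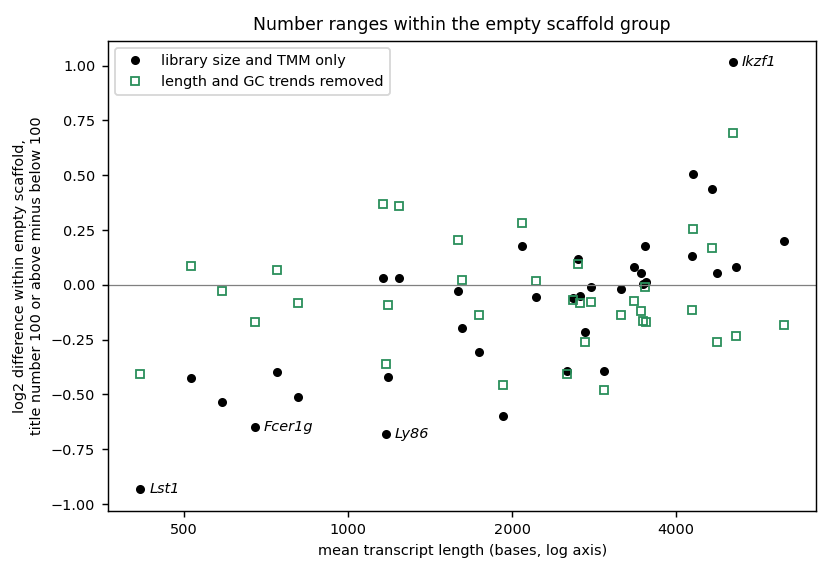
Log2 difference between empty scaffold livers numbered 100 or above and those numbered below 100 (y axis, n = 4 each) for the 36 members against transcript length in bases (x axis, log scale), as reported (dots) and with length and GC trends removed (squares). In the dots, Lst1, Fcer1g and Ly86 were called lower, and 13 of the 18 longer members lie above 0 against 3 of the 18 shorter ones.

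The transplant difference was also read within each range. It is the contrast that chose the members, so the counts within each range are a description and no independent support. The slope of level on length, in the livers numbered 100 or above, ran from -0.242 to 0.0291 with the transplant and from 0.176 to 0.223 with the empty scaffold. In the livers numbered 100 or above (3 against 4) 14 members were called lower, beside 11.5% of all genes tested, 35 of 36 were negative and the median log2 fold change was -0.80. In those numbered below 100 (3 against 4) 0 were called, beside 0.00771% of all genes called lower, 35 of 36 were negative and the median was -0.61. A test of whether the transplant difference itself differed between the ranges called 0 of 36 members and 0.0% of all genes by edgeR. At an unadjusted p under 0.05 it held 2 members (5.56%) and 2275 genes (17.3%). The largest interaction terms were those of Ikzf1 (-1.30 ± 0.63 log2), Dock2 (-1.15 ± 0.52) and Plcg2 (-1.13 ± 0.57). None was called, with adjusted p of 0.301, 0.267 and 0.314 by edgeR's quasi-likelihood test. These members are 5079, 6317 and 4298 bases long. With length and GC trends removed the interaction again called 0 members.

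Which transcript of a gene carried the reads had no part in choosing the members, which was done on sums over transcripts. The shares come from the same counts, and a gene entered the test only with at least 20 in every library. The share of the main transcript was compared by a two-sided exact permutation test over all allocations of the libraries to groups of these sizes for 9628 genes, 23 of them members. It called 0 members and 0.0% of all genes after Benjamini-Hochberg adjustment, and the smallest adjusted p was 0.916 over all genes and 0.937 over the members. At an unadjusted p under 0.05 it held 2 of the 23 members and 437 of the 9628 genes. For Syk, the share of the main transcript was 42.0% ± 26.5 (SD, n = 6) with the transplant and 72.7% ± 21.6 (n = 8) with the empty scaffold (exact p = 0.0333), and for Tyrobp 47.4% ± 19.6 against 76.2% ± 21.4 (exact p = 0.0283), where the smallest p the design allows is 0.000333. Neither difference passed adjustment, and the spread within each group was large. At that smallest p a gene can pass adjustment over 9628 genes only if many others reach it too. The 0 calls therefore decide nothing about single genes.

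Related genes of the same pathways that are no members were counted from lists written with earlier results known. Of 128 genes listed, 25 were called lower, which is 21.7% of those tested beside 4.23% of all genes, and 1 was called higher, with a median log2 fold change of -0.45; nothing is read from that difference. Of 19 tested receptors with ITAM or inhibitory ITIM signalling, 4 were called lower, all 19 were negative and the median was -0.69. The 4 were Sirpa, the receptor for CD47 (-0.88 ± 0.19), the inhibitory receptor Lilrb4a (-1.03 ± 0.29), the beta-glucan receptor Clec7a (-0.97 ± 0.27) and Trem2, a lipid receptor that signals through TYROBP (-1.14 ± 0.33). With 1 library left out at a time Sirpa was called in 13 of 14 fits, Clec7a and Trem2 in 6 and Lilrb4a in 4; Sirpa was not called with length and GC trends removed (-0.68), nor the other 3 with the effective length offset. Fcgr2b, the inhibitory Fc receptor, was not called (-0.27 ± 0.16).

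Among 34 further kinases, adaptors and targets tested, 7 were called lower and 1 higher, with a median of -0.44. The lower ones included the kinase Fyn (-0.60 ± 0.14), the adaptor Sla (-0.96 ± 0.24) and Pik3r5, a regulatory PI3-kinase subunit (-1.09 ± 0.27), called in 10, 10 and 8 of the 14 fits; Sla was not called with the effective length offset (-0.92), nor Pik3r5 with trends removed (-0.79). Csk, the kinase that holds SRC-family kinases inactive, was not called (-0.10 ± 0.08). The gene called higher was Zap70, the relative of Syk that serves the T cell receptor, at 11.5, 13.4 and 22.6 CPM with the transplant against 6.71, 9.82 and 13.1 CPM with the empty scaffold (log2 fold change 0.65 ± 0.16, adjusted p = 0.0321 by edgeR). It was called in 9 of the 14 fits without 1 library, and not without transplant replicate 1 or 3 or empty scaffold replicate 3, 4 or 8; its log2 fold change was 1.05 in the livers numbered 100 or above and 0.24, not called, in the others. Cd3e, a chain of the receptor that ZAP70 serves, named here after its values were seen, had a median of 0.370 CPM with the transplant and 0.357 CPM with the empty scaffold, with ranges that overlapped.

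Of 37 further actin and RAC genes, 14 were called lower, 30 were negative and the median was -0.38. The lower ones included 4 called in all 14 of those fits, Elmo1, the partner of DOCK2 (-1.35 ± 0.23), the leukocyte myosin Myo1f (-1.41 ± 0.25), moesin (Msn, -0.87 ± 0.16) and the RAC inhibitor Arhgap25 (-1.09 ± 0.22). Elmo1 was not called with the effective length offset, at -0.84. Profilin (Pfn1), an actin regulator of most cells, was not called (0.16 ± 0.17, and -0.03 with length and GC trends removed). None of the 5 oxidase partners (median 0.06, with Rac1 at 0.06 ± 0.08 and Nox4 at 0.20 ± 0.10), the 11 tested transcription factors (median -0.34) or the 10 tested tetraspanins and receptor partners (median -0.28) was called in either direction.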

How the data were processed

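Per the labels' protocols, stranded mRNA libraries were made from total liver RNA of RIN above 7. The submitters' processing notes name fastp 0.20, kallisto 0.46.1, DESeq2 1.38 and GRCm39 without roles; kallisto options, strand setting and annotation release: not given in the sources used here. For each transcript the authors deposited, per the file headers, an estimated count and a TPM. Of 128803 transcript IDs, 120608 (93.6%), with 99.4% to 99.5% of counts, were matched by ID to GENCODE M21 (built on GRCm38) for names; its coordinates served only to find overlapping genes. Estimated counts were summed per gene and rounded to whole numbers. Genes were filtered with filterByExpr, scaled by TMM and tested with the quasi-likelihood test of edgeR 4.0.16 (R 4.3.3) with Benjamini-Hochberg adjustment, all 14 libraries in the fit; the title number ranges were tested in a fit with a mean for each group and range. Length and GC trends (splines with 4 degrees of freedom) were removed per library as an alternative. No 2 libraries were identical. Titles carry a different number for each sample, but no label states separate animals, so the p-values describe only sample-to-sample spread, which may be technical. Strandless counting would merge reads of genes on opposite strands, which overlap 11 members (Arhgdib, Cd37, Cd52, Coro1a, Dock2, Lcp1, Lcp2, Lyn, Ncf1, Ptpn6 and Slc15a3). The members, roles and lists were chosen with earlier results of these data known. Members with the highest mean CPM of each role, or standing apart within it, are given in full; of each related list, up to 4 called genes with the smallest adjusted p and up to 2 with the highest mean CPM are named. The scripts were tested on simulated data.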

Additional observations from a re-analysis of the deposited data

Results flagged for a closer look

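The level of Csf3r in transplant replicate 4 was far from the others of its group, at 0.793 CPM, by a test of the gap between the highest library and the next. The test was made on 72 groups (36 members in 2 groups) and picked out 1; chance picks out about 1 in 20.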

How the results depend on the processing

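Against 990 genes and 13 members called, DESeq2's Wald test called 1965 genes, number range as a covariate 2580 genes and 22 members, the livers numbered below 100 alone 3 genes and 0 members, those numbered 100 or above alone 3488 genes, an effective length offset 315 genes and 5 members, and removal of length and GC trends 509 genes. The cause was not tested. Each single range held 3 transplant and 4 empty scaffold libraries, so the number of libraries was the same in both. Leaving out 1 library at a time gave 138 to 1908 genes called, 5 to 16 members called and medians of the members from -0.83 to -0.62. The members called between the number ranges of the empty scaffold group were 0 with trends removed and 0 to 4 with a library left out. Lcp1 was 0.016 in the livers numbered below 100 and Lst1 0.13 in those numbered 100 or above, both reversed in sign, as was Pfn1 with trends removed (-0.035). No paired analysis was possible because the labels carry no replicate numbers shared by the groups. Members near 1 CPM rest on few reads, which limits their precision.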
